A study of Mus musculus with 11 samples.

Results

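Homologous recombination and the Fanconi anaemia pathway were followed through 34 genes, which were listed by name for their known roles. They were 34 of the 35056 genes to which the transcripts of the libraries could be assigned, and each had 1 gene entry in the annotation. The comparison asked how the transcripts of these repair genes stood in small cell lung cancer (SCLC) cells 24 h after irradiation, without and with an adjustment for transcript length. All 34 passed the filter on low counts, which left 14106 genes for testing.

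The cells were KP1, a mouse SCLC line with mutant Rb and p53 that grows in suspension in RPMI medium. The 2 control libraries came from untreated cells (0 Gy) and the 3 irradiated libraries from cells given 5 Gy, all collected at 24 h. The labels number the controls 2 and 3 and the irradiated samples 1, 2 and 3. They do not say whether samples were separate cultures, so the p values measure the spread between these samples, which may be technical. KP1 is 1 line, and bulk RNA cannot tell fewer cells in a given cell cycle phase from less RNA per cell.

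Homologous recombination repairs a double-strand break by copying the sister chromatid. Nucleases cut the broken ends back to single strands, BRCA1 with BARD1 and PALB2 brings in BRCA2, and BRCA2 loads the recombinase that searches for the matching sequence. The Fanconi anaemia proteins repair crosslinks between the DNA strands: a core complex attaches ubiquitin to the FANCD2 and FANCI pair, nucleases then cut the crosslink out, and homologous recombination finishes the repair. Many of these genes are transcribed mainly in S and G2 phase, when a sister chromatid is present, under the control of E2F factors. SCLC cells divide fast and lack the retinoblastoma protein that holds E2F back.

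The libraries held 31036317 and 26432466 reads in control replicates 2 and 3 and 24469945, 21185956 and 27243557 reads in irradiated replicates 1, 2 and 3. At this depth the lowest count of any of the 34 genes in a library was 65 reads. Transcript length was not sampled alike. Weighted by reads, the mean transcript length was 5463 and 4729 bases in the controls and 3715, 3625 and 3998 bases in the irradiated libraries, so every irradiated library lay below both controls. Transcripts annotated as retained introns took 4.99% and 5.42% of TPM (an abundance per transcript length, with the same total in each library) in the controls and 2.31%, 3.09% and 2.96% in the irradiated libraries. For this reason fold changes of named genes are given without adjustment and with an offset that removes each library's trend with transcript length. The part of the length difference that came from the cells and the part that came from the RNA or the libraries cannot be told apart in this design.

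The SCLC label was checked against marker genes. All 10 SCLC markers were expressed, and together they held 2892 and 3060 TPM in the controls and 3000.4, 2980.4 and 2798 TPM in the irradiated libraries. Within this sum Ncam1 was lower, at −1.20 (adjusted p = 0.0227 by edgeR), with 354 and 153 TPM in the controls and 78.0, 46.7 and 84.0 TPM after irradiation. Uchl1, Calca and Syp were higher, at 1.14, 1.18 and 0.64, and with the length offset none of the 10 was called. Of 7 macrophage and leukocyte markers, 1 passed the filter on low counts, Cd68, at 4.05 and 6.62 TPM in the controls and 1.60, 0.992 and 1.35 TPM after irradiation. C1qa was at 0 in all 5 libraries, and Csf1r, Adgre1, Lyz2 and Itgam did not exceed 0.136 TPM. Ptprc was at 0.498 and 0.157 TPM in the controls and 0.0194, 0.127 and 0.0926 TPM after irradiation. Of 6 fibroblast and endothelial markers, Pdgfra was the most abundant at 36.6 to 56.7 TPM, whereas Dcn, Col1a2 and Cdh5 did not exceed 0.0564 TPM. Col1a1 stood at 13.5 TPM in control replicate 2 and at most 0.104 TPM elsewhere. Pecam1 was at 1.22 and 0.924 TPM in the controls and 0.261, 0.384 and 0.304 TPM after irradiation, with a log2 fold change of −1.28 (adjusted p = 0.163 by edgeR) and −1.33 with the offset (adjusted p = 0.192).

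The number of recombination and Fanconi genes called after irradiation depended on the length adjustment. Without adjustment for length, 18 of the 34 were lower at an adjusted p under 0.05 by edgeR, against 13.0% of all genes tested, and 1 was higher, against 12.7% of all genes tested. Their median log2 fold change was −0.64, beside 0.02 over all genes tested. The 18 were Brca1, Bard1, Brca2, Brip1, Xrcc2, Xrcc3, Rad54l, Rad54b, Exo1, Blm, Fanca, Fancm, Fancd2, Fanci, Slx4, Eme1, Gen1 and Polq, and the gene that was higher was Fance. With the length offset, 13 of the 34 were lower, against 3.52% of all genes tested, and none was higher, against 4.2% of all genes tested. None of the members was higher at an unadjusted p under 0.05 in that fit either. DESeq2, which was run without the offset, called 2 members higher, with 2364 higher among all genes. The 13 were all among the 18, and the median of the 34 with the offset was −0.42, beside 0.04 over all genes tested. The calls lost were those of Brca2, Brip1, Blm, Fancm and Fancd2, besides that of Fance.

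The calls leaned on single libraries. Without control replicate 2 the 18 lower members of the fit without the offset were 4, with 175 lower among all genes tested. Leaving out 1 library in turn, the call of Fance was kept only without irradiated replicate 3. There were 0 higher members without irradiated replicate 1 or irradiated replicate 2, where 832 and 684 of all genes tested were higher. With the length offset the count of lower members was 0 without control replicate 2, 0 without irradiated replicate 1, 0 without irradiated replicate 2, 6 without irradiated replicate 3 (216 lower among all genes tested) and 13 without control replicate 3. The last of these lost Brca1 and gained Brca2, with 827 lower among all genes tested. In the first 3, edgeR called at most 2 of all genes tested lower, so the loss was not limited to the members. No exact permutation test of 2 against 3 libraries can give a two-sided p below 0.1, and the smaller values given here draw on an estimate of spread that edgeR pools over genes.

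The libraries can also be compared one by one. In CPM (counts scaled by library size and TMM), all 3 irradiated libraries lay below both controls for 22 of the 34 genes, against 29.3% of all genes tested. In length-adjusted CPM this also held for 22 of the 34, against 21.5% of all genes tested. With the study's own thresholds, a log2 fold change beyond 1.5 in size and an adjusted p under 0.05, 2 members were lower, against 1.9% of all genes tested. These were Bard1 and Polq, and with the length offset, at −1.04 and −0.76, neither passed them. No member was higher by those thresholds in edgeR or DESeq2, against 1.63% of all genes tested, the highest log2 fold change of a member being 0.62, and without control replicate 2 edgeR placed 0 members past them in either direction.

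**Figure D1:**
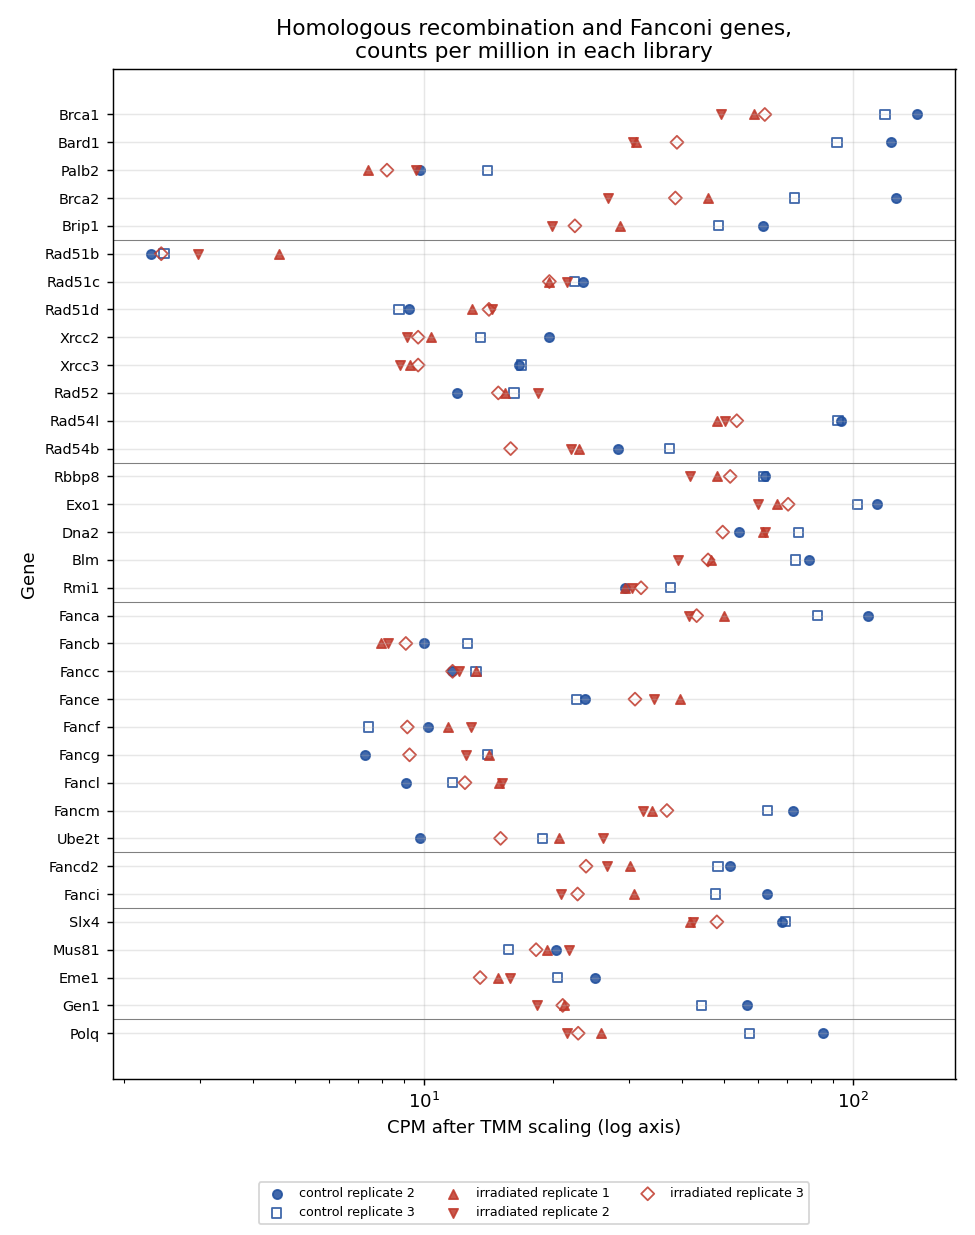
CPM of each of the 34 genes (log axis) in the 2 control libraries (blue) and 3 irradiated libraries (red), with grey lines between groups of genes by role. For 22 of the 34 genes every red symbol lies to the left of both blue ones.

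Levels between genes were compared in TPM, which is per length. The highest means over all 5 libraries were those of Exo1, Slx4 and Fanca, at 52.3, 46.3 and 45.1 TPM. Within groups the order differed, with Fanca highest in the controls at a mean of 78.6 TPM and Fance highest after irradiation at 39.9 TPM. These sums include short isoforms. In control replicate 2 the isoforms with the longest coding sequence held 33.8% of the TPM of Exo1, 23.8% of Slx4 and 32.8% of Fanca. By those isoforms the 3 genes had 23.8, 17.3 and 34.15 TPM there, below Rad54l at 42.8, Bard1 at 41.55 and Brca1 at 39.6. The least abundant were Rad51b, Palb2 and Fancb, at 3.06, 5.96 and 6.00 TPM. Summed over the 34 genes, TPM was 1036 and 1020.1 in the controls and 562, 543 and 577 in the irradiated libraries, with no overlap. A TPM value also depends on all other genes, because the total is fixed. The median log2 ratio of mean TPM, irradiated over control, was −0.32 over all genes tested and −0.97 over the 34. The tests therefore use counts, and TPM is given for levels.

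Of BRCA1 and its partners, 4 of 5 genes were lower without adjustment (13.0% of all genes tested) and 2 with the offset (3.52%). Brca1, on chromosome 11 of GRCm38 from 101488764 to 101551955, encodes the ubiquitin ligase that directs breaks towards recombination, and stood at 44.4 and 36.6 TPM in control replicates 2 and 3 and at 16.1, 12.4 and 16.1 TPM in irradiated replicates 1, 2 and 3. Both controls lay above all irradiated libraries, by a factor of over 2 in each. The log2 fold change was −1.19 ± 0.16 (SE, adjusted p = 0.00825 by edgeR), and with the length offset −0.50 ± 0.12 (adjusted p = 0.0471), lower in 3 of 3 irradiated libraries both ways. Bard1, which encodes the obligate partner of BRCA1 and lies on chromosome 1 from 71027498 to 71103146, had 41.5 and 32.0 TPM in the controls and 8.79, 8.20 and 11.5 TPM in the irradiated libraries. The groups were far apart, and the irradiated libraries close together. Its log2 fold change of −1.67 ± 0.18 (adjusted p = 0.00825 by edgeR) was the lowest of the 34 without adjustment, and with the offset it was −1.04 ± 0.13 (adjusted p = 0.0192), where 6 members lay lower. Bard1 has 1 annotated transcript, so no shift between isoforms enters its value.

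Brca2 carries the recombinase to single-stranded DNA. The gene lies on chromosome 5 from 150522630 to 150570329 and had 32.0 and 21.8 TPM in the controls and 13.0, 7.59 and 16.5 TPM in the irradiated libraries. The controls were the higher group, but they differed from each other more than control replicate 3 differed from irradiated replicate 3. Brca2 had a log2 fold change of −1.42 ± 0.28 (adjusted p = 0.012 by edgeR) without adjustment and −0.71 ± 0.23 (adjusted p = 0.0868) with the offset, which is past the threshold in the first fit alone, and the call was also lost with the effective length offset (adjusted p = 0.0845). Brip1, a helicase that binds BRCA1 (chromosome 11, 86058138 to 86201193), had 21.9 and 19.4 TPM in the controls and 7.49, 8.33 and 8.55 TPM after irradiation. On this scale the irradiated libraries were tightly grouped below both controls. In CPM they were more spread, at 28.6, 19.8 and 22.5 against 61.7 and 48.6 in the controls. For Brip1 the log2 fold change was −1.22 ± 0.20 (adjusted p = 0.00919 by edgeR), and −0.68 ± 0.19 with the offset (adjusted p = 0.0588). Palb2, which bridges BRCA1 and BRCA2, was among the least abundant, at 5.92 and 12.01 TPM in the controls and 3.32, 4.36 and 4.17 TPM in the irradiated libraries. Its controls differed from each other more than the lower one did from the irradiated libraries. Palb2 was not called, at −0.50 ± 0.25 (adjusted p = 0.171 by edgeR) and −0.40 ± 0.24 with the offset (adjusted p = 0.292).

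Among the 8 genes for recombinase paralogs, mediators and translocases, 4 were lower without adjustment (13.0% of all genes tested) and the same 4 with the offset (3.52%). Rad54l, a motor protein that remodels DNA during strand exchange (chromosome 4, 116094264 to 116123690), had 56.1 and 56.9 TPM in the controls and 24.8, 24.7 and 28.5 TPM in the irradiated libraries. Replicates of a group were close and the groups were well apart. Rad54l had a log2 fold change of −0.88 ± 0.14 (adjusted p = 0.00919 by edgeR), and −0.71 ± 0.12 with the offset (adjusted p = 0.0248). Its relative Rad54b (chromosome 4, 11558922 to 11615805) had 33.7 and 58.0 TPM in the controls and 22.3, 25.6 and 25.2 TPM after irradiation. The controls were spread more widely than the irradiated libraries, without overlap. Rad54b changed by −0.70 ± 0.22 (adjusted p = 0.0482 by edgeR) and by −1.05 ± 0.18 with the offset (adjusted p = 0.0248). The first of these calls was lost whichever library was left out. It was also lost with library size alone, upper quartile scaling, the effective length offset or the replicate number as a block.

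Xrcc2 and Xrcc3 encode paralogs of the recombinase that work in separate complexes. Xrcc2 (chromosome 5, 25689812 to 25705825) had 37.9 and 16.4 TPM in the controls and 6.21, 7.33 and 6.02 TPM in the irradiated libraries. Control replicate 2 stood far above control replicate 3 on this scale, while the CPM values were 19.5 and 13.5 in controls against 10.4, 9.13 and 9.69 after irradiation. Xrcc2 had a log2 fold change of −0.77 ± 0.23 (adjusted p = 0.0418 by edgeR), and −1.09 ± 0.25 with the offset (adjusted p = 0.0399), and 1 of the 5 fits that left out 1 library kept the first of these calls. It was also lost with library size alone, upper quartile scaling, protein-coding transcripts alone or the replicate number as a block. Xrcc3 (chromosome 12, 111803192 to 111813873) had 33.4 and 28.6 TPM in the controls and 13.4, 9.08 and 13.0 TPM after irradiation. No irradiated library reached a control. That of Xrcc3 was −0.86 ± 0.20 (adjusted p = 0.0188 by edgeR), and −1.31 ± 0.20 with the offset (adjusted p = 0.0236). With protein-coding transcripts alone it was 0.02 (adjusted p = 0.973 by edgeR), which ended the call, and 3 of the 5 fits that left out 1 library kept it. The offset enlarged the falls of Xrcc2, Xrcc3 and Rad54b, whose mean transcript lengths by TPM were 1706, 1348 and 1581 bases, because short transcripts as a class stood higher in the irradiated libraries.

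The remaining paralogs were not lower by test. Rad51b, the least abundant of the 34, had 2.73 and 2.96 TPM in the controls and 4.43, 2.73 and 2.46 TPM in the irradiated libraries. The groups overlapped, with irradiated replicate 1 alone standing higher, and the log2 fold change was 0.47 ± 0.42 (adjusted p = 0.422 by edgeR) and 0.23 ± 0.40 with the offset (adjusted p = 0.74). Rad51d gave 0.62 (adjusted p = 0.0573 by edgeR) and 0.43 with the offset, and Rad51c gave −0.19 (adjusted p = 0.443) and −0.39. Rad52, an annealing protein, gave 0.21 without adjustment and −0.26 with the offset, so its sign depended on the adjustment.

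End resection and dissolution, the steps that open a break and take the joined molecules apart again, had 2 of 5 genes lower without adjustment (13.0% of all genes tested) and 1 with the offset (3.52%). Exo1, a nuclease of long-range resection (chromosome 1, 175880581 to 175913489), had 70.4 and 77.6 TPM in the controls and 34.01, 36.1 and 43.2 TPM in the irradiated libraries. All irradiated libraries were below both controls. Exo1 had a log2 fold change of −0.72 ± 0.15 (adjusted p = 0.0131 by edgeR), and −0.64 ± 0.13 with the offset (adjusted p = 0.0346). The second call was lost with the length of the longest coding transcript in the offset, at −0.04 (adjusted p = 0.856). Blm, the helicase that dissolves joined molecules together with RMI1 (chromosome 7, 80454733 to 80535119), had 37.8 and 46.3 TPM in the controls and 19.9, 15.7 and 18.5 TPM after irradiation. The groups did not overlap. Blm fell, at −0.79 ± 0.15 (adjusted p = 0.0111 by edgeR), and missed the threshold with the offset, at −0.51 ± 0.13 (adjusted p = 0.0528). Rbbp8, which starts resection, had a log2 fold change of −0.40 (adjusted p = 0.0843 by edgeR), Dna2 of −0.16 and Rmi1 of −0.13. With the offset they were −0.15, 0.06 and −0.11, so the sign of Dna2 depended on the adjustment, and none of these 3 was called. Rmi1 shares 75.6% of its main transcript, at 99.7% identity, with the gene Gm20775, so its counts are uncertain.

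**Figure D2:**
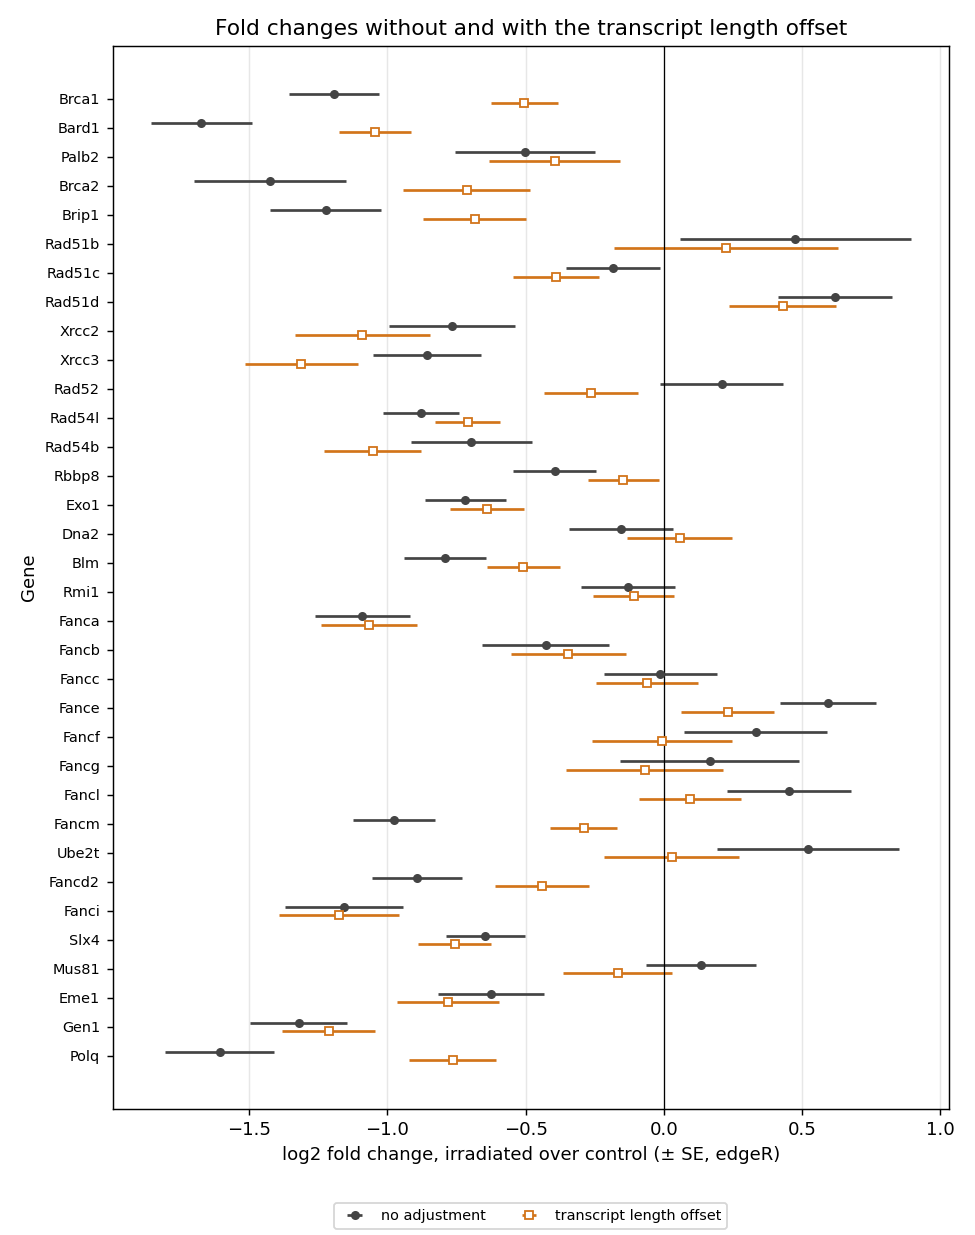
Log2 fold change of each of the 34 genes, irradiated over control, without adjustment (grey circles) and with the transcript length offset (orange squares), with bars of 1 SE from edgeR. The offset moved Brca1 from −1.19 to −0.50 and left Gen1 at −1.21 from −1.32.

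Of the 9 genes of the Fanconi core complex, the ubiquitin enzyme Ube2t included, 2 were lower and 1 was higher without adjustment (13.0% and 12.7% of all genes tested), and 1 was lower with the offset (3.52%). Fanca, a subunit of the core complex (chromosome 8, 123268300 to 123318576), had 104 and 52.9 TPM in the controls and 23.3, 21.8 and 23.3 TPM in the irradiated libraries. The irradiated libraries were nearly equal, and control replicate 2 stood well above control replicate 3. In CPM the controls were closer, at 109 and 82.5, against 50.1, 41.4 and 43.2 after irradiation. Fanca had a log2 fold change of −1.09 ± 0.17 (adjusted p = 0.00919 by edgeR), and −1.07 ± 0.17 with the offset (adjusted p = 0.0242). Fancm, the motor protein that anchors the core complex on DNA (chromosome 12, 65075603 to 65132058), had 20.4 and 24.1 TPM in the controls and 9.31, 6.61 and 9.28 TPM after irradiation. Its groups were apart in every scale, yet the change of −0.98 ± 0.15 (adjusted p = 0.00919 by edgeR) was −0.29 ± 0.12 with the offset (adjusted p = 0.153). Fancm is long, with a mean transcript length of 6121 bases.

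Fance, which links the core complex to FANCD2, was the 1 member that was higher (chromosome 17, 28313519 to 28326572). It had 33.3 and 34.03 TPM in the controls and 44.1, 37.2 and 38.4 TPM in the irradiated libraries, all above both controls. The log2 fold change was 0.59 ± 0.17 (adjusted p = 0.0397 by edgeR), and 0.23 ± 0.17 with the offset (adjusted p = 0.39), where the groups overlapped. Of the 5 fits that left out 1 library, 1 kept this call. It was also lost with the effective length offset, protein-coding transcripts alone or the replicate number as a block. Fancb had 6.82 and 8.86 TPM in the controls and 4.50, 4.43 and 5.39 TPM after irradiation, lower in 3 of 3 irradiated libraries. Its log2 fold change of −0.43 ± 0.23 (adjusted p = 0.194 by edgeR) and that of −0.34 ± 0.21 with the offset (adjusted p = 0.296) did not pass the threshold. Fancc, Fancf, Fancg, Fancl and Ube2t had log2 fold changes of −0.01, 0.33, 0.17, 0.45 and 0.52 and overlapped between groups in CPM, apart from Fancl. With the offset they were −0.06, −0.01, −0.07, 0.10 and 0.03, so Fancf and Fancg changed sign. None of these 5 was called in either fit. The direction of Fancl depended on the scale. In CPM all irradiated libraries lay above both controls, and in TPM below, at 13.9, 11.4 and 16.1 against 21.5 and 16.5.

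FANCD2 and FANCI form the clamp that the core complex marks with ubiquitin. Fancd2, on chromosome 6 from 113531682 to 113597017, had 21 and 22.8 TPM in the controls and 9.22, 8.67 and 10.6 TPM in the irradiated libraries. The values within each group were close, and the groups did not overlap. Fancd2 had a log2 fold change of −0.89 ± 0.16 (adjusted p = 0.0106 by edgeR) and −0.44 ± 0.17 with the offset (adjusted p = 0.126). Fanci, on chromosome 7 from 79391929 to 79450264, had 45.4 and 38.4 TPM in the controls and 20.97, 14.8 and 17.8 TPM after irradiation. Both controls were well above the irradiated libraries. It changed by −1.16 ± 0.21 (adjusted p = 0.0107 by edgeR) and by −1.18 ± 0.22 with the offset (adjusted p = 0.0283). The offset follows the length given to a gene, which was 4529 bases for Fancd2 and 2591 bases for Fanci. Their transcripts with the longest coding sequence have 5512 and 4645 bases. No test compared the fold changes of the pair.

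Of the 4 genes for nucleases that cut branched DNA, 3 were lower both without the offset (13.0% of all genes tested) and with it (3.52%). Gen1, which resolves the four-way junctions left by recombination (chromosome 12, 11238920 to 11265801), had 39.8 and 31.9 TPM in the controls and 12.3, 6.50 and 9.19 TPM in the irradiated libraries. The gap between the groups was larger than the spread within either. Gen1 had a log2 fold change of −1.32 ± 0.17 (adjusted p = 0.00825 by edgeR), and −1.21 ± 0.17 with the offset (adjusted p = 0.0192). Slx4, the scaffold that holds several nucleases (chromosome 16, 3979105 to 4003770), had 72.5 and 66.1 TPM in the controls and 24.2, 27.3 and 41.6 TPM after irradiation. Irradiated replicate 3 was the highest of its group but stayed below both controls. Slx4 changed by −0.65 ± 0.14 (adjusted p = 0.0168 by edgeR), and by −0.76 ± 0.13 with the offset (adjusted p = 0.0262). Eme1, a partner of MUS81 (chromosome 11, 94644996 to 94653964), had 21.3 and 24.9 TPM in the controls and 10.8, 11.4 and 13.1 TPM in the irradiated libraries. Again no irradiated library reached a control. Eme1 had a log2 fold change of −0.63 ± 0.19 (adjusted p = 0.0447 by edgeR), and −0.78 ± 0.18 with the offset (adjusted p = 0.0446). Of the 5 fits without the offset that left out 1 library, 1 kept the call of Eme1 and 2 kept that of Slx4. The unadjusted call of Eme1 was also lost with library size alone, upper quartile scaling or no low count filter. The effective length offset, protein-coding transcripts alone and the replicate number as a block ended it too. Mus81 itself, the nuclease subunit, gave 0.13 (adjusted p = 0.651 by edgeR) and −0.17 with the offset, with overlapping groups.

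Polq encodes polymerase theta, which joins broken ends at short matching stretches and becomes essential when recombination fails. The gene lies on chromosome 16 from 37011786 to 37095417 and had 20.3 and 16.8 TPM in the controls and 5.85, 4.08 and 5.08 TPM in the irradiated libraries. Every irradiated library was below both controls by a wide gap. The log2 fold change was −1.61 ± 0.20 (adjusted p = 0.00825 by edgeR), and −0.76 ± 0.16 with the offset (adjusted p = 0.0334). Its mean transcript length weighted by TPM was the largest of the 34, at 7362 bases. The transcripts with the whole Brca2 coding sequence are longer, at 10517 and 10724 bases, against 8552 bases for Polq-201.

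Length and fold change went together among the members. The median transcript length of the 34 was 2646 bases, close to the 2502 bases of all genes tested. Across genes, the correlation of log2 fold change with log2 length was −0.737 over the 34 and −0.413 over all genes tested, and with the offset −0.237 and 0.00428. Genes are not independent replicates, and these values are descriptions. A split at 3 kb was chosen after the data were seen. Of the 13 members of 3 kb or longer, 10 were lower without adjustment, against 27.7% of all genes of that length, and 5 with the offset, against 3.38%. Of the 21 shorter members, 8 were lower without adjustment, against 3.85% of the shorter genes, and 8 with the offset, against 3.61%. The split used mean lengths weighted by TPM, which short isoforms lower. Of these 8, Exo1, Fanca, Fanci, Slx4 and Xrcc2 drew most of their reads from longer isoforms in every library. Those isoforms have 7796, 4485, 4645, 5706 and 3247 bases, so these genes are not short by their reads. The length given to a gene also mattered. With the length of the longest protein-coding transcript in the offset, chosen after the data were seen, 9 members were lower, with 323 lower among all genes tested, and the calls of Xrcc2, Rad54b, Exo1 and Slx4 were lost (adjusted p = 0.0759, 0.0599, 0.856 and 0.287 by edgeR). With that length and sums over protein-coding transcripts alone, also chosen afterwards, 5 were lower, namely Brca1, Bard1, Rad54l, Fanca and Gen1, and over all genes tested edgeR called 144 lower in that fit.

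**Figure D3:**
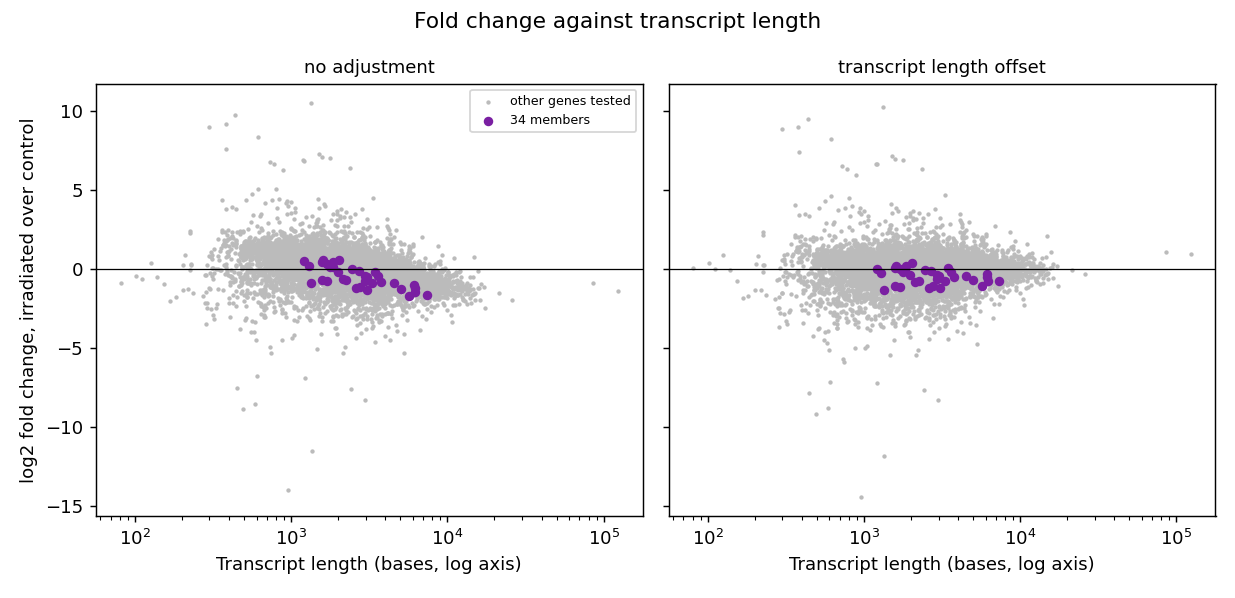
Log2 fold change, irradiated over control, against mean transcript length in bases (log axis) for all genes tested (grey) and the 34 members (purple), without adjustment (left) and with the transcript length offset (right). The downward trend of the left panel, a correlation of −0.413 over all genes, is at 0.00428 in the right one.

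Isoforms of a gene did not always differ between the groups in the same way. The protein-coding transcript Xrcc3-201 had 4.80 and 8.40 TPM in the controls and 5.57, 4.90 and 6.59 TPM in the irradiated libraries, which overlap. Xrcc3-203, annotated as a target of nonsense-mediated decay, had 8.90 and 5.67 TPM in the controls and 0.765, 0.900 and 0.301 TPM after irradiation. Summed over protein-coding transcripts alone, the log2 fold change of Xrcc3 was 0.02, so its fall came with the transcripts that do not encode the full protein. Rad54l-201 had 29.4 and 27.1 TPM in the controls and 7.30, 9.43 and 11.05 TPM after irradiation. Rad54l-202, which encodes the same 747 codons, had 13.4 and 15.9 TPM in the controls and 12.3, 10.6 and 10.8 TPM after irradiation, a smaller difference. Of the Xrcc2 transcripts, the full-length Xrcc2-201 had 8.71 and 7.12 TPM in the controls and 5.23, 4.03 and 5.08 TPM after irradiation. The short Xrcc2-204, of 464 bases, had 19.1 and 4.28 TPM in the controls and at most 2.19 TPM after irradiation, so it held 19.1 of the 37.9 TPM of the gene in control replicate 2.

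The 2 transcripts that hold the whole Brca2 coding sequence were both lower, Brca2-210 at 12.4 and 9.36 TPM against 5.28, 3.51 and 5.46 TPM, and Brca2-201 at 9.02 and 3.55 TPM against 0.959, 0 and 0 TPM. Reads shared by such transcripts are divided by estimation, so their split is uncertain. For Exo1 the 968-base Exo1-207 and the 7796-base Exo1-201 were the main isoforms, at 32.1 and 23.8 TPM in control replicate 2. When each transcript was tested on its own with edgeR, 0 of the 132 transcripts of the members were called, and 24 were lower and 6 higher at an unadjusted p under 0.05, beside 8.31% and 12.5% of all 40440 transcripts tested. With the length offset 0 were called as well, and 16 were lower and 7 higher at an unadjusted p under 0.05, beside 5.93% and 11.4%. No transcript of any gene was called in that test either, with a smallest adjusted p of 0.0893 by edgeR without the offset and 0.151 with it. In the members, retained-intron transcripts took 6.86% and 12.7% of TPM in the controls and 7.4%, 10.7% and 7.9% in the irradiated libraries, which overlap.

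Some members share exonic sequence with another gene on the opposite strand, and whether the counting used strand is not given in the sources used here. Among the genes that were lower, the partners on that strand with a mean above 1 TPM were Klc1 for Xrcc3, Lrrc41 for Rad54l, Zfp276 for Fanca, Polg for Fanci, and Lrrc59 and Mrpl27 for Eme1. Mrpl27 was higher, at 1.10 (adjusted p = 0.0188 by edgeR) and 0.49 with the offset (adjusted p = 0.155), and the unadjusted log2 fold changes of the other 5 ran from −0.32 to 0.46 without a call. Reads from these shared stretches cannot be told apart without strand. Rad54b, also lower, shares exonic sequence with Fsbp on the same strand, where strand would not separate the reads. Fsbp had a mean of 1.45 TPM and a log2 fold change of −0.11 (adjusted p = 0.904 by edgeR). With the offset Fsbp was at 0.27 (adjusted p = 0.781 by edgeR).

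The other genes of the pathway, 51 by list, included further resection factors, single-strand binding proteins, helicases and Fanconi accessory proteins, and 50 were tested. Of these, 6 were lower and 7 higher by edgeR without adjustment, beside 13.0% and 12.7% of all genes tested, and 4 were lower and 1 higher with the offset, beside 3.52% and 4.2%. Their median log2 fold change was −0.09 and −0.10 in these fits. Zgrf1, a helicase, had 21.1 and 20.97 TPM in the controls and 6.78, 6.42 and 6.51 TPM in the irradiated libraries, with a log2 fold change of −1.23 (adjusted p = 0.00825 by edgeR) and −0.53 with the offset (adjusted p = 0.0779). Rad50, the long arm of the complex that first binds a break, had 36.3 and 29.9 TPM in the controls and 12.2, 8.30 and 12.9 TPM after irradiation, a change of −1.27 (adjusted p = 0.00919 by edgeR) and −0.75 with the offset (adjusted p = 0.0378). Rtel1, a helicase that takes apart recombination intermediates, changed by −0.75 (adjusted p = 0.0102 by edgeR) and by −0.74 with the offset (adjusted p = 0.0242). All irradiated libraries lay below both controls for these 3 genes.

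Among the genes of that list that were higher, Sem1, a small acidic protein that binds BRCA2, had 34.4 and 45.6 TPM in the controls and 91.0, 129 and 71.0 TPM in the irradiated libraries, a change of 1.56 (adjusted p = 0.011 by edgeR) and 1.14 with the offset (adjusted p = 0.0308). Its partner Brca2 stood lower in the same libraries. Swi5 and Swsap1, cofactors of recombinase filaments, rose by 0.73 (adjusted p = 0.0163 by edgeR) and 0.88 (adjusted p = 0.0178), with 0.12 (adjusted p = 0.558) and 0.63 (adjusted p = 0.057) under the offset. Irradiated libraries were above both controls in CPM for all 3 of these genes. Without control replicate 2, edgeR called 1 gene of the list lower and 0 higher, without irradiated replicate 2 it called 3 lower and 1 higher, and without irradiated replicate 1 it called 3 higher. Over all genes tested these fits called 175 lower and 95 higher, 834 lower and 684 higher, and 832 higher.

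Genes of S phase and of G2 and M phase were read in the same fits, since many members are known to be transcribed mainly in S and G2 phase. Of 25 S-phase genes, 2 were lower and 5 higher by edgeR without adjustment (13.0% and 12.7% of all genes tested), and 0 were lower and 1 higher with the offset (3.52% and 4.2%), with medians of 0.10 and 0.08. Their most abundant genes were Pcna at 0.86 (adjusted p = 0.0272 by edgeR), Mcm6 at −0.09, Mcm7 at 0.10 and Mcm5 at 0.13, of which Pcna alone was called and lost that call with the offset (0.45, adjusted p = 0.124). With the offset Mcm6, Mcm7 and Mcm5 were at −0.06, −0.0047 and 0.15. Of 22 genes of G2 and M phase, 8 were lower and none was higher without adjustment (13.0% and 12.7% of all genes tested), and 5 were lower with the offset (3.52%), with medians of −0.32 and −0.25. Mki67, a proliferation marker, had 593 and 299 TPM in the controls and 79.4, 43.3 and 64.5 TPM after irradiation. Its log2 fold change was −2.57 (adjusted p = 0.00825 by edgeR), and −1.50 with the offset (adjusted p = 0.0231). Top2a changed by −1.34 (adjusted p = 0.00825 by edgeR) and by −1.02 with the offset (adjusted p = 0.0236), while Cdk1 and Ccna2 were not called, at 0.64 and −0.29 and, with the offset, 0.08 and −0.24. Of the genes of G2 and M phase, 5 were lower without irradiated replicate 2, beside 834 lower among all genes tested. The 2 lower S-phase genes were 0 in that fit. They were 1 without irradiated replicate 1 or irradiated replicate 3, beside 909 and 1460 lower among all genes tested. The part of the cell cycle in the values of the 34 members was not tested.

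Of 17 E2F and DREAM regulators, 5 were lower and 1 was higher by edgeR without adjustment (13.0% and 12.7% of all genes tested), and 1 was lower and 1 higher with the offset (3.52% and 4.2%). The 2 called in both fits were E2f7 at −1.14 (adjusted p = 0.00919 by edgeR) and −0.88 with the offset (adjusted p = 0.027), and Cdkn1a at 1.12 (adjusted p = 0.0192) and 0.91 with the offset (adjusted p = 0.0477). E2f1 had 99.7 and 91.0 TPM in the controls and 103, 69.1 and 81.2 TPM in the irradiated libraries, a log2 fold change of 0.11 (adjusted p = 0.69 by edgeR) and 0.13 with the offset, with overlapping groups. Foxm1, an activator of G2 and M phase genes, had 213 and 157 TPM in the controls and 80.6, 54.2 and 64.7 TPM after irradiation, a log2 fold change of −1.03 (adjusted p = 0.0177 by edgeR) and −0.86 with the offset (adjusted p = 0.0588). Mybl2 gave −0.51 (adjusted p = 0.077 by edgeR) and −0.37 with the offset, and Trp53 gave 0.64 (adjusted p = 0.23) and 0.41. Rb1 reads were present at 58.1 and 65.8 TPM in the controls, and its log2 fold change of −0.47 (adjusted p = 0.0455 by edgeR) was −0.05 with the offset. Reads alone do not show whether a mutant allele gives a working protein.

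Promoter sequences of RefSeq genes (GRCm38.p6, 250 bases before to 50 after the start) were matched by symbol to 28 of the 34 members. The other 6 were Rad51d, Xrcc2, Rad54b, Rbbp8, Exo1 and Fancd2. They were searched on both strands for the E2F-like letters TTCCCGC and TTGGCGC, for TTTGAA, the core of the cell cycle homology region (CHR), and for CCAAT. E2F-like letters were found in 13 of the 28 members (46.4%) and in 7.79% of 27025 genes in the table. TTTGAA was found in 4 of the 28 (14.3%) and in 20.2% of all genes, and CCAAT in 16 of the 28 (57.1%) and in 41.1%. Of the 14 members with a promoter that were lower without adjustment, 6 held E2F-like letters, and of the 14 others 7 did. The difference was not tested, and 4 of the 18 lower members had no promoter in the table. A match is a description of letters and not of binding.

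The stretches around these letters are shown for 4 members that were lower without adjustment, Bard1, Brca2, Fancm and Polq, and for 2 that were not called, Ube2t and Fancg, to let the promoters be compared. Capitals mark the E2F-like letters and, in Bard1 and Polq, TTTGAA nearby. On GRCm38.p6 they lie at chr1:71103154-71103222 (reverse strand) for Bard1, chr5:150522433-150522479 (forward) for Brca2, chr12:65075529-65075575 (forward) for Fancm, chr16:37011763-37011805 (forward) for Polq, chr1:134962386-134962464 (forward) for Ube2t and chr4:43010326-43010372 (reverse) for Fancg, each written 5′ to 3′ on the strand of its gene.
Bard1: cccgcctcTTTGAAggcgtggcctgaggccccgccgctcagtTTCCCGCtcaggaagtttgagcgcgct
Brca2: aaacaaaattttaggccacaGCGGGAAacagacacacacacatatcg
Fancm: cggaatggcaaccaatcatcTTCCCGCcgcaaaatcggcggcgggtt
Polq: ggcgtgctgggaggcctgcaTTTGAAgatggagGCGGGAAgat
Ube2t: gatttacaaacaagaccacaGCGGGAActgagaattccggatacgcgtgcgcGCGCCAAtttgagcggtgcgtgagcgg
Fancg: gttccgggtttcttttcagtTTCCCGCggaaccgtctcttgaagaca

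The 34 genes lie on 15 chromosomes, and chromosome 11, with Brca1, Brip1, Rad51c, Rad51d, Eme1 and Fancl, holds the most. Of these, Brca1, Brip1 and Eme1 were lower without adjustment (13.0% of all genes tested), and Brca1 and Eme1 with the offset (3.52%). The other 3 were not called in either fit.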

How the data were processed

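Bulk RNA from KP1 cells was sequenced in 2 control and 3 irradiated samples, and the single-cell samples were left out. Salmon was run by the authors on default settings with mm10 as reference (version 0.8.2 in the submitters' processing notes, which also name DESeq2 1.22.2), and the authors deposited an estimated count per transcript, not scaled. The authors also deposited TPM, which is scaled within each library. The annotation release they used is not given in the sources used here.

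Transcript identifiers were matched without version to GENCODE M21 on GRCm38 (112762 of 113116), and estimated counts and TPM were summed to genes. Counts were rounded and tested with edgeR 4.0.16 in R 4.3.3 (filterByExpr, TMM, quasi-likelihood test, Benjamini-Hochberg adjustment over 14106 genes), irradiated against control, without a block. The length offset was a natural spline with 5 degrees of freedom per library on log2 transcript length, the mean over a gene's transcripts weighted by TPM. It removes any trend with length, technical or biological. Length-adjusted CPM is the count divided by that offset. The scripts were tested on simulated data. Reads were taken as independent for depth statements, which cover counting error only.

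Members and lists were chosen with earlier results of these data known. All 34 members are named. Values per library and both fits are given in full for members with an adjusted p under 0.05 in either fit, the 3 highest and 3 lowest in mean TPM, and Brca1, Brca2, Fancd2 and Polq. Also named are the 6 other pathway genes with the smallest p, the 4 most abundant genes of each cell cycle list, and E2f1, Foxm1, Mybl2, Rb1 and Trp53. Overlap partners, isoforms and genes outside this rule were chosen after their values were seen. Near-identical copies were sought with blastn 2.17.0 at 95% identity over at least 20% of the main transcript. Tables and plots used Python 3.11.15 with pandas 2.3.3, numpy 2.4.6 and matplotlib 3.10.9. Alternatives were DESeq2 1.42.0, other normalizations, filters, length measures, isoform sums, transcripts as units, thresholds, the replicate number as a block, and each replicate left out in turn.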

Additional observations from a re-analysis of the deposited data

How the results depend on the processing

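Every member that was called without adjustment kept its direction under all alternatives with a value per gene, apart from Xrcc3. That gene was at 0.0165 with protein-coding transcripts alone. Transcripts as units give no value per gene and are not covered by this statement. The cause of the changes below was not tested, except that a stricter threshold gives fewer calls by construction. Counts at other adjusted p thresholds stand without the share of all genes tested, so they show no excess among the listed genes. The same holds for counts past the study's thresholds in the alternative fits. A fit without a control library has 1 control, which is then assumed to vary like the irradiated libraries.

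Lower members numbered 18 and were 8 at an adjusted p under 0.01 by edgeR, 0 with the transcript as unit and 4 to 17 with 1 library left out. With the replicate number as a block they were 10, while the block combined with the length offset gave 0 in place of 13. The calls lost with the block alone were those of Xrcc2, Xrcc3, Rad54l, Rad54b, Exo1, Blm, Slx4 and Eme1, besides that of Fance. In that block fit edgeR called 494 of all genes lower, and with the offset 2. The block left 0 members higher, 2 lower and 2 higher other pathway genes, 0 lower S-phase genes and 4 lower G2 and M phase genes. Across genes, the ratio of replicate 2 to 3 in controls correlated at −0.196 with that in irradiated samples, and no source says that samples share more than a number. A crossed block, chosen after the data were seen, kept all 19 calls of members and added 3, those of Rad51d, Rbbp8 and Ube2t. It gave 3 higher members and 16 lower other pathway genes, with 2670 lower and 3026 higher among all genes.

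With the length offset, lower members were 9 with the length of the longest coding transcript and 5 with that length and protein-coding transcripts alone (both chosen after the data were seen), 0 at an adjusted p under 0.01 by edgeR, 0 with transcripts as units, and 0 to 13 with 1 library left out.

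The 1 higher member became 2 with DESeq2, library size alone, upper quartile scaling or an adjusted p under 0.1, and 0 with either length offset, protein-coding transcripts alone, transcripts as units or an adjusted p under 0.01. With 1 library left out it was 0 to 1. The 2 members past the study's thresholds became 4 with the effective length offset, 0 with the length offset and 0 to 3 with 1 library left out.

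Other pathway genes, 6 lower and 7 higher, were 13 and 11 at an adjusted p under 0.1 and 2 and 0 under 0.01. The length offset left 1 higher, and leaving out 1 library gave 1 to 5 lower and 0 to 9 higher. The 2 lower S-phase genes were 1 with the effective length offset, library size alone, no low count filter or upper quartile scaling, 0 with the length offset or under 0.01, and 0 to 2 with 1 library left out. The 8 lower G2 and M phase genes were 5 with the length offset, 4 under 0.01 and 4 to 7 with 1 library left out.

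Among members not called, signs changed as follows. The length offset gave log2 fold changes of −0.26 for Rad52, 0.0574 for Dna2, −0.0065 for Fancf, −0.0683 for Fancg and −0.17 for Mus81. The effective length offset gave −0.0014 for Rad52, 0.0928 for Dna2, 0.10 for Fancc, −0.16 for Fancg and −0.11 for Fancl. Fancc was at 0.0687 with library size alone, 0.033 without a low count filter and 0.0438 with upper quartile scaling, and Dna2 at 0.0089 with protein-coding transcripts alone. Under the length offset, the block turned Rad51b to −0.0847 and Dna2 to −0.0034. The longest coding length turned Dna2 to −0.0031, Rmi1 to 0.0378, Fancg to 0.0817 and Ube2t to −0.0847, and protein-coding transcripts alone with that length turned Fancg to 0.36.

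With 1 library left out, unadjusted values ran from −0.35 to 0.11 for Dna2, −0.27 to 0.0759 for Rmi1, −0.0816 to 0.10 for Fancc, −0.21 to 0.74 for Fancg and −0.0189 to 0.35 for Mus81. With the length offset they ran from −0.0859 to 0.39 for Rad51b, −0.14 to 0.35 for Dna2, −0.22 to 0.0644 for Rmi1, −0.12 to 0.0072 for Fancc, −0.27 to 0.38 for Fancf, −0.39 to 0.40 for Fancg, −0.25 to 0.48 for Ube2t and −0.39 to 0.15 for Mus81.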
